A study of Mus musculus with 16 samples.

Results

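The genes described here are cholesterol synthesis enzymes and a feedback regulator that are standard targets of the sterol regulatory element-binding proteins (SREBPs). A list of 7 genes was given: Hmgcs1, Fdps, Fdft1, Sqle, Cyp51, Dhcr7 and Insig1. Probes were taken by the gene symbol in the array annotation, in any letter case, or else by the symbol in brackets in the probe's definition. This found 10 probes of 6 genes among the 25697 probes and 17849 gene names of the array, and Fdft1 was not analysed here. A probe was tested where 4 or more of the 16 arrays gave it a detection p-value below 0.05, and 9 of the 10 probes passed this filter on low values, as did 15016 probes in all.

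Animal cells make cholesterol from acetyl-CoA through mevalonate, isoprenoid diphosphates, squalene and lanosterol. When sterols in the endoplasmic reticulum are low, the escort protein Scap carries SREBP to the Golgi, where the proteases encoded by Mbtps1 and Mbtps2 release its active part, which enters the nucleus and raises transcription of the synthesis genes. Insig1 and Insig2 hold Scap in the endoplasmic reticulum when sterols are plentiful. The retina makes cholesterol locally, also takes it up from lipoproteins, and disposes of part of it as oxidised sterols and through efflux.

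The samples were whole retinas of C57BL/6 mice, an inbred laboratory strain, aged with no genetic or drug intervention. There were 4 arrays each of females at 3 months, females at 24 months, males at 3 months and males at 24 months, called young and aged below, to ask whether the retina ages differently in the sexes. The aged male 1 has aged in its title and 12 months in its age field, and was kept in the aged group. Single-colour Illumina BeadChips read the brightness of labelled complementary RNA, and the 16 arrays lay on 5 slides, of which 4 held 3 groups each and slide 5 held 1 array. The arrays' mean intensities lay between 157.8 and 240.3, with 52.6% to 57.0% of probes detected. The number of arrays limits the precision of each value, and nothing in the labels ties each array to an animal of its own. The p-values therefore reflect only how far these samples vary, which may be partly technical. Of the defining markers of retinal cell types, 7 of 8 for rods, 6 of 6 for cones, 6 of 6 for bipolar cells, 5 of 7 for ganglion cells and 7 of 8 for Müller glia passed the filter on low values, while Nr2e3 of the rod markers and Nefl and Pou4f2 of the ganglion cell markers were not detected on any array. All 12 lens markers passed too. Their summed normalised intensity ran from 67600 to 81500 in young females, 28200 to 82300 in aged females, 54000 to 88900 in young males and 58700 to 89600 in aged males. The 7 tested rod markers summed to 55400 to 68000. Each probe binds with its own strength, so sums over different probes do not give relative amounts of lens and rod RNA. The part of lens RNA in the results below was not tested.

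The sequence just before the start of a gene is where SREBP and its usual partner, the CCAAT-binding factor NF-Y, are known to act on these genes, so 3 of these windows are shown. RefSeq (GRCm38.p6) windows could be matched for 4 of the 7 genes, and the 250 bases before the annotated start were searched on both strands. The letters searched were TCACNCCAC and TCACCNCA for the sterol regulatory element, which can overlap each other, CCAAT for the CCAAT box and CACGTG for an E-box. Capitals mark every match, written as read on the gene's strand, so that a CCAAT box on the opposite strand appears as ATTGG. The Hmgcs1 window is chr13:119690101-119690350 on the plus strand, the Cyp51 window chr5:4104698-4104947 on the minus strand and the Insig1 window chr5:28071162-28071411 on the plus strand, each printed 5′ to 3′ on the gene's strand.
Hmgcs1: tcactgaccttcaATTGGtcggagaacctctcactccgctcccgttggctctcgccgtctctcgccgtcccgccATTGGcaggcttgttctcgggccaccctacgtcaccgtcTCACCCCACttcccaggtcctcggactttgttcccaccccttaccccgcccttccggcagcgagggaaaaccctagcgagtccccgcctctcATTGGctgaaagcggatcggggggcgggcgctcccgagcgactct
Cyp51: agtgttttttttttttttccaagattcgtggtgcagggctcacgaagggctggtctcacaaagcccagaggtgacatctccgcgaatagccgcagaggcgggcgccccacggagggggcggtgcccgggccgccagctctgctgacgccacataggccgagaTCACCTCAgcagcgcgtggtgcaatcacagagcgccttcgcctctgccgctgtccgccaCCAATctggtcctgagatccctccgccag
Insig1: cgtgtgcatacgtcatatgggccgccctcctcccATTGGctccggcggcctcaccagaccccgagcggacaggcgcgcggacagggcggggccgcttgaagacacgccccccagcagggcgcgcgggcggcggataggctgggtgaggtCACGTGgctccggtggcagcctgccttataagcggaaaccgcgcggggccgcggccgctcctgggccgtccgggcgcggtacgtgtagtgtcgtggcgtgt
In the Hmgcs1 window both sterol element searches matched at the same place, 137 bases before the start, and the CCAAT box matched 3 times. The Cyp51 window held the shorter sterol element 88 bases before the start and 1 CCAAT box. The Insig1 window held 1 E-box, 101 bases before the start, and 1 CCAAT box. Dhcr7 has 3 annotated starts, and its windows held no sterol element of these letters, 1 E-box in the second and 2 CCAAT boxes in the third. Of 32851 RefSeq windows of the same length, 1.05% matched TCACNCCAC, 3.61% TCACCNCA, 33.8% CCAAT and 6.02% CACGTG. A match is a description of letters, and binding was not measured.

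Levels below are log2 normalised intensities after background correction and quantile normalisation, and a difference between groups is on the same log2 scale, with the standard error (SE) from the limma fit. Each probe binds with its own strength, so levels are compared between groups and never between probes. None of the 9 tested probes passed an adjusted p of 0.05 (limma, Benjamini-Hochberg over all 15016 probes) in any of 6 comparisons: aging in each sex, aging as the mean of the sexes, females against males at each age, and the difference in aging between the sexes. Over all probes 0.633% passed for aging in females, 0.992% for aging in males, 1.88% for the mean of both, 0.393% for sex at 3 months, 0.686% for sex at 24 months and 0.0% for the difference in aging, so that 0 of 9 lies near the background. In the last comparison, where limma called 0 probes, 1402 probes (9.34%) had an unadjusted p under 0.05, and 0 of the 9 did. At an unadjusted p under 0.05 stood 1 of the 9 for aging in females (7.14% of all probes), 0 in males (14.6%), 2 for the mean of both (11.1%), 1 for sex at 3 months (15.6%) and 0 at 24 months (12.7%).

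Hmgcs1 encodes cytosolic HMG-CoA synthase, which condenses acetyl-CoA and acetoacetyl-CoA on the way to mevalonate. Its probe (ILMN_2654952) read 11.41, 11.67, 11.67 and 11.63 in the young females and 11.62, 11.60, 11.60 and 11.59 in the aged females. It read 11.72, 11.58, 11.73 and 11.68 in the young males and 11.58, 11.67, 11.43 and 11.58 in the aged males. All 4 groups overlapped, the aged females lay closest together, and young female 1 and aged male 3 were the low arrays. The difference with age was 0.0025 in females (SE 0.075, 95% interval −0.16 to 0.16, adjusted p = 0.999, limma) and −0.11 in males (SE 0.075, −0.27 to 0.048, adjusted p = 0.522).

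Fdps encodes farnesyl diphosphate synthase, which makes the isoprenoid from which sterols, ubiquinone, dolichol and protein prenyl groups branch. Its probe (ILMN_1225730) read 9.99, 9.93, 9.88 and 9.96 in young females and 9.75, 9.73, 9.66 and 9.64 in aged females. In young males it read 9.79, 9.77, 9.89 and 10.01, and in aged males 9.76, 9.87, 9.65 and 9.65. Every aged female lay below every young female, while the male groups overlapped. The female difference was −0.25 (SE 0.074, 95% interval −0.4 to −0.089), a level 1.19-fold lower, with an unadjusted p of 0.00419 and an adjusted p of 0.267 (limma). Aged groups lay wholly below young ones for 1.53% of all probes in females. In males the difference was −0.13 (SE 0.074, −0.29 to 0.024, adjusted p = 0.425). The mean of both sexes was −0.19 (SE 0.053, −0.3 to −0.078) with an adjusted p of 0.0876, which lay under the threshold in 2 of 10 alternative settings, the authors' scaled values (−0.20, 0.0481) and an intensity trend with robust variances (−0.19, 0.0478). Within slides, where 1 or 2 arrays of each age shared a slide, aged minus young was −0.33 on slide 2 and −0.24 on slide 4 in females, and −0.028 on slide 1 and −0.19 on slide 3 in males. In RNA of a whole tissue, fewer cells of a type and less RNA per cell cannot be told apart.

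Sqle encodes squalene epoxidase, a rate-limiting enzyme of the sterol branch, and has 2 probes. The brighter, probe 1 (ILMN_2737163), read 9.56, 9.40, 9.38 and 9.54 in young females and 9.34, 9.45, 9.32 and 9.36 in aged females. It read 9.53, 9.44, 9.55 and 9.43 in young males and 9.66, 9.53, 9.37 and 9.45 in aged males. The groups overlapped, with differences of −0.10 in females (SE 0.076, 95% interval −0.26 to 0.057, adjusted p = 0.882, limma) and 0.016 in males (SE 0.076, −0.14 to 0.18, adjusted p = 0.941). Probe 2 (ILMN_2600348) read from 6.08 to 6.57 in young females, 5.76 to 6.27 in aged females, 5.74 to 6.51 in young males and 5.77 to 6.18 in aged males. Its differences with age were −0.26 in females (SE 0.15, adjusted p = 0.815) and −0.12 in males (SE 0.15, adjusted p = 0.755). Over the 16 arrays the deviations of the 2 Sqle probes from their group means had a Pearson r of −0.10 (permutation p = 0.722).

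Cyp51 encodes lanosterol demethylase, the first oxidative step after the sterol rings are closed. Its probe (ILMN_2688075) read 7.08, 7.30, 7.21 and 7.43 in young females, and 7.27, 7.33, 7.21 and 7.24 in aged females. In young males it read 7.50, 7.39, 7.32 and 7.40, and in aged males 7.44, 7.27, 7.36 and 7.31. The groups overlapped, and the young females were spread widest. With age it differed by 0.01 in females (SE 0.078, 95% interval −0.15 to 0.18, adjusted p = 0.989, limma) and by −0.054 in males (SE 0.078, −0.22 to 0.11, adjusted p = 0.789). Female minus male was −0.15 at 3 months (SE 0.078, −0.31 to 0.016, adjusted p = 0.361).

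Dhcr7 encodes the reductase of the last step of the pathway in its Kandutsch-Russell form, which turns 7-dehydrocholesterol into cholesterol. Its probe (ILMN_2660471) read 6.72, 6.34, 6.11 and 6.22 in young females and 5.83, 6.40, 6.18 and 5.96 in aged females. In males it read 6.52, 6.43, 6.55 and 6.72 when young and 6.38, 6.44, 6.21 and 6.23 when aged. The means were lower with age in both sexes, but young and aged arrays overlapped in each. The differences were −0.26 in females (SE 0.13, 95% interval −0.53 to 0.02, adjusted p = 0.753, limma) and −0.24 in males (SE 0.13, −0.51 to 0.038, adjusted p = 0.418). With 1 array left out the female difference ran from −0.13 without young female 1 to −0.36 without aged female 2, and was not called in any of the 16 fits. For the mean of both sexes the difference was −0.25 (SE 0.093, −0.44 to −0.052), with an unadjusted p of 0.0162 and an adjusted p of 0.276. The difference in aging between the sexes was −0.018 (SE 0.19, −0.41 to 0.37).

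Insig1 encodes the endoplasmic reticulum protein that retains Scap and is itself an SREBP target, and has 4 probes. Probe 1 (ILMN_2895388), the brightest, read 7.62, 7.13, 7.73 and 7.74 in young females and 7.04, 7.48, 7.34 and 7.64 in aged females. In young males it read 7.10, 7.20, 7.27 and 7.01, and in aged males 7.02, 7.16, 7.46 and 7.77. Of the young females 3 lay above all young males, and young female 2 lay among them. Female minus male at 3 months was 0.41 (SE 0.16, 95% interval 0.067 to 0.76), with an unadjusted p of 0.0222 and an adjusted p of 0.24 (limma). That value was 0.17 with slide as a fixed block, 0.42 within slide 2 and −0.0058 within slide 3, the 2 slides that held young arrays of both sexes. With age probe 1 differed by −0.18 in females (SE 0.16, −0.53 to 0.16) and by 0.21 in males (SE 0.16, −0.14 to 0.55), and the difference between these was −0.39 (SE 0.23, −0.88 to 0.099, adjusted p = 0.59). With slide as a fixed block these were −0.039, 0.14 and −0.18, and with 1 array left out −0.32 to −0.073 in females and 0.069 to 0.32 in males.

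The other Insig1 probes were dim. Probe 2 (ILMN_1245272) was detected on all arrays at 4.97 to 5.54, and its differences with age were −0.055 in females and −0.073 in males (SE 0.12 each, adjusted p = 0.967 and 0.821, limma). Probe 3 (ILMN_2606693) was detected on 12 of 16 arrays at 4.37 to 5.15, and its differences were −0.11 in females and 0.14 in males (SE 0.14 each, adjusted p = 0.947 and 0.676). Probe 4 (ILMN_2620965) was detected on 0 of 16 arrays, with detection p-values from 0.124 to 0.987, and was not tested. Probes 2 and 3 moved together over the arrays, with a Pearson r of 0.72 between deviations from group means (permutation p = 0.00695, adjusted p = 0.0278 over 4 same-gene pairs) and a Spearman rho of 0.75 (adjusted p = 0.0214), and r was 0.64 without the 2 arrays farthest from the median. Against probe 1 they stood at −0.47 and −0.40 (adjusted p = 0.175 and 0.201).

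**Figure D1:**
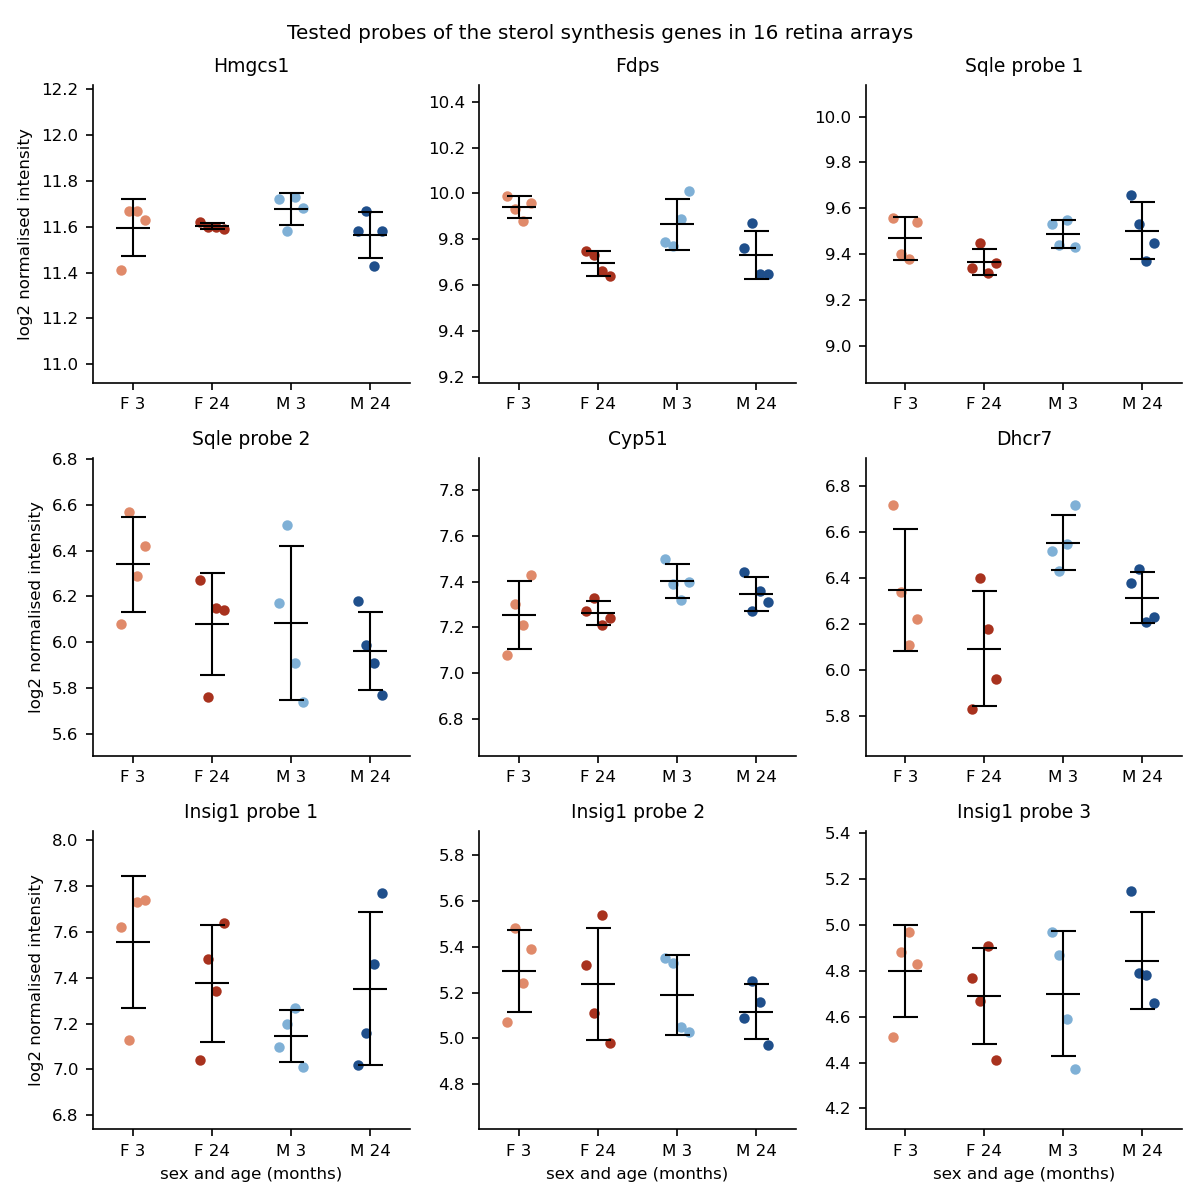
Log2 normalised intensity (vertical axis) of the 9 tested probes in females (F) and males (M) at 3 and 24 months. Points are arrays, the long bar is the mean of 4 arrays and whiskers are ±1 SD, and every panel spans the same range of 1.3 log2 units. Fdps in females is the 1 panel and sex in which young and aged arrays do not overlap.

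Counted by sign, 7 of the 9 probes were below 0 for aging in females, against 50.3% of all probes, and 6 of 9 in males, against 55.9%. The median difference of the 9 probes was −0.111 in females and −0.073 in males, beside −0.001 and −0.022 over all probes, whose 5th and 95th percentiles were −0.22 and 0.22 in females and −0.25 and 0.31 in males. Taken as 6 genes by their brightest probe, 4 were below 0 in each sex. For the sex difference the median was 0.077 at 3 months and −0.035 at 24 months, beside −0.016 and 0.006 over all probes. With 1 probe per gene the median at 3 months had the opposite sign, −0.048, with 4 of 6 genes below 0, and at 24 months it was −0.06. Apart from Insig1 probe 1, the 8 other probes differed between the sexes by −0.21 to 0.26 at 3 months, with adjusted p-values of 0.361 to 0.935, and all 9 by −0.23 to 0.12 at 24 months, with 0.487 to 0.975 (limma). The 95% intervals of the 9 probes reached from −0.58 to 0.2 for aging in females and from −0.51 to 0.55 in males. A change of 1 unit on this normalised log2 scale lies outside every one of them. The offset of 16 added before the log2 step makes changes of dim probes smaller on this scale. For the Insig1 probes other than probe 1, the dimmest with a mean level of 4.76, the intervals therefore set no such limit on the signal itself.

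**Figure D2:**
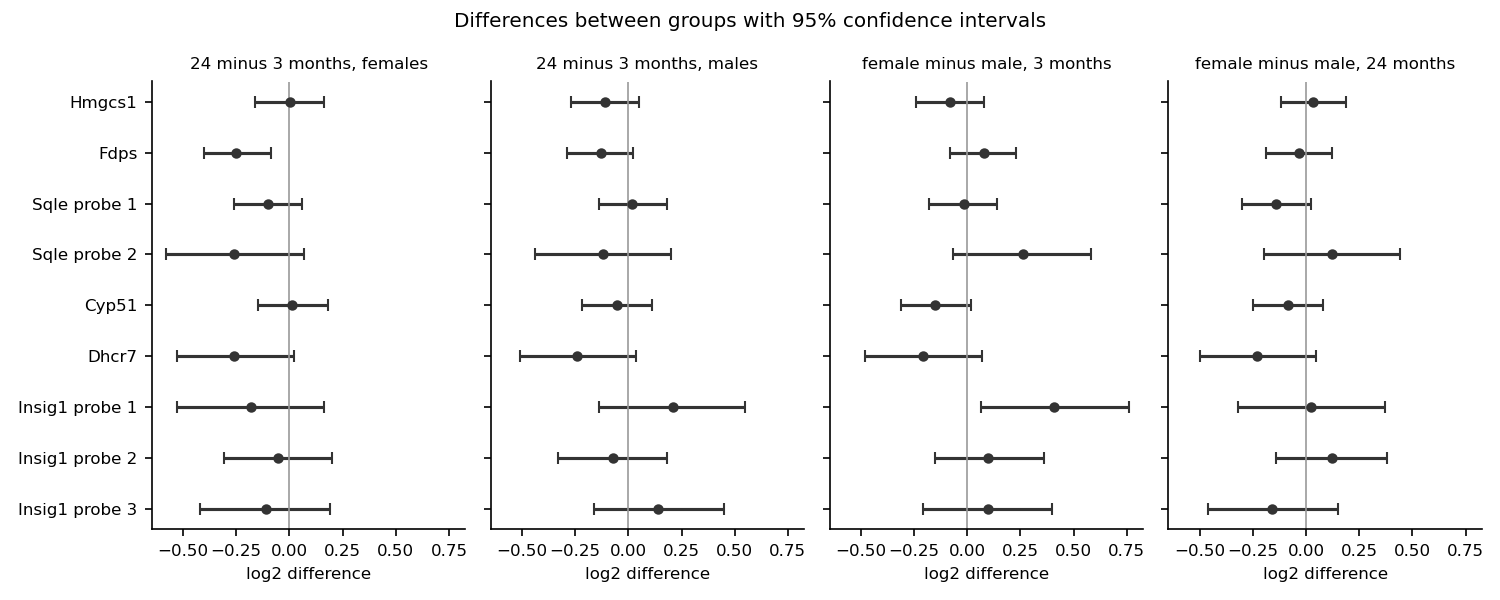
Log2 differences (horizontal axis) of the 9 tested probes in 4 comparisons, with 95% confidence intervals from the limma fit, not adjusted for the number of probes. The interval of Fdps for aging in females (−0.4 to −0.089) and that of Insig1 probe 1 for sex at 3 months (0.067 to 0.76) leave out 0, and neither passed after adjustment.

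Co-variation was taken over the 16 arrays with the brightest probe of each gene, which gives 15 pairs, as deviations from the 4 group means so that age and sex do not enter. Pairs of one array share its RNA and hybridisation. Of the 15 pairs 7 had an r above 0, the median r was −0.11, and 0 pairs passed an adjusted p of 0.05 by permutation (smallest 0.246), while 1 had an unadjusted p under 0.05. Fdps with Dhcr7 stood highest, with a Pearson r of 0.51 (permutation p = 0.0164, adjusted p = 0.246), a Spearman rho of 0.50 (adjusted p = 0.526) and an r of 0.44 without the 2 arrays farthest from the median. As deviations from group and slide means, r for that pair was 0.53. Sqle with Dhcr7 followed at an r of 0.48 (adjusted p = 0.401), 0.66 as deviations from group and slide means. Fdps with Sqle had an r of 0.39, while Fdps with Insig1 stood lowest at −0.48 (adjusted p = 0.401). With slide means removed as well, the order changed: Fdps with Insig1 was at −0.24, Fdps with Cyp51 went from −0.11 to −0.57, the lowest value, Sqle with Cyp51 from 0.17 to −0.54, and Dhcr7 with Insig1 from −0.13 to 0.41, and the median r was 0.04. Without removing group means, Sqle with Dhcr7 had an r of 0.60 and Fdps with Dhcr7 0.58, both with an adjusted p of 0.135.

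Set against the mean of the other 5, each standardised, Sqle had an r of 0.51, Fdps 0.26, Dhcr7 0.14, Hmgcs1 0.04, Cyp51 −0.04 and Insig1 −0.41. Mean intensity of the array had no relation past the threshold with any of the 6 genes (permutation, smallest adjusted p = 0.357 over 6 relations). Leaving out aged female 1 raised Fdps with Dhcr7 to 0.70, the 1 of 15 pairs that then passed (adjusted p = 0.0012). With median scaling in place of quantile normalisation 5 pairs passed and the median r was 0.36, but the members' mean then had a median r of 0.40 with all 11021 other genes, of which 80.0% were above 0, against 0.01 and 51.6% with quantile normalisation.

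**Figure D3:**
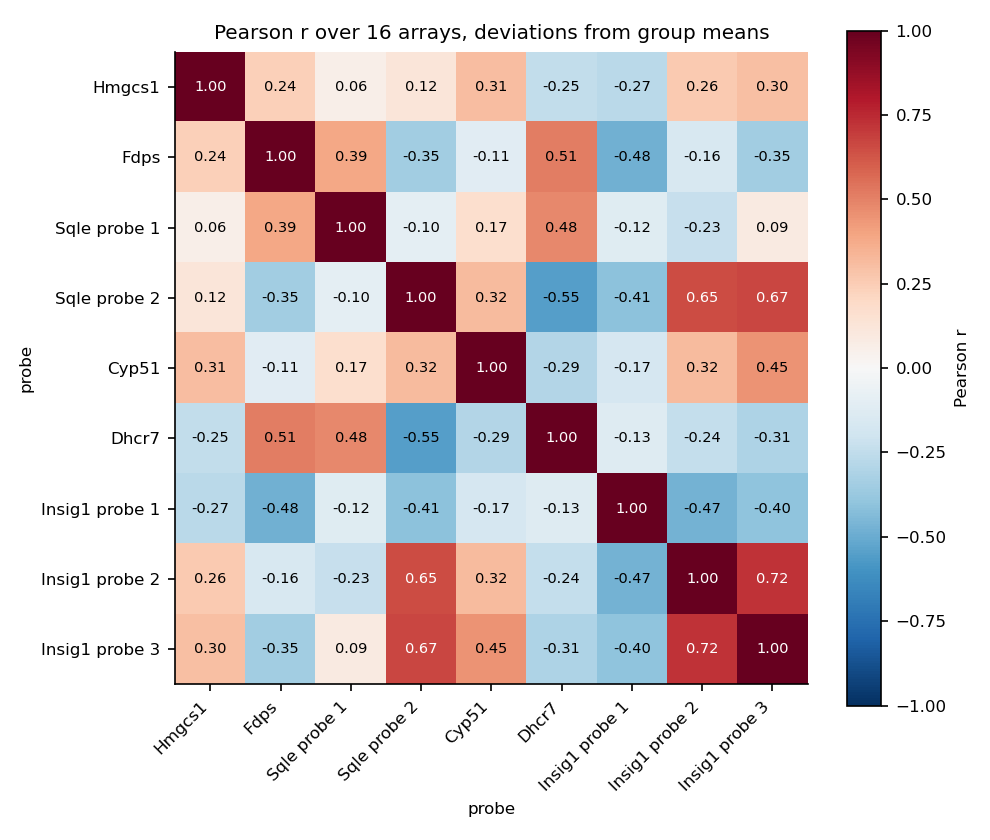
Pearson r over 16 arrays between the 9 tested probes, as deviations from group means, on a colour scale from −1 (blue) to 1 (red). The highest off-diagonal value is 0.72, between Insig1 probes 2 and 3, followed by 0.67 and 0.65 between Sqle probe 2 and Insig1 probes 3 and 2.

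The genes whose deviations were most like the mean of the 6 genes, out of 11021 others with a tested probe, were Tmem106a (r 0.90), Gstt1 (0.86), Nfatc1 (0.85), Evc (0.80), Cyp4v3 (0.79), 3830406C13Rik (0.79), Enox2 (0.78), Akap9 (0.78), Timp2 (0.77) and H2-Eb1 (0.76), over 16 arrays. The 5th to 95th percentile of r over all those genes was −0.50 to 0.52. These r values are with the mean of the 6 genes, which did not move together. With single genes of the 6, r ran from −0.04 to 0.77 for Tmem106a, 0.21 to 0.51 for Nfatc1 and −0.25 to 0.74 for Akap9. Of the 38 tested genes of the pathway lists below, Hsd17b7, a ketoreductase of sterol demethylation, ranked highest with an r of 0.63 at rank 170. With slide means removed as well, its r was 0.57, and Pmvk (0.85), Lss (0.76), Elovl6 (0.67) and Sc5d (0.61) stood above it. Without that step r was −0.11 for Pmvk, 0.39 for Lss, 0.39 for Elovl6 and −0.15 for Sc5d. Removing slide means leaves the 1 array of slide 5 with no deviation. The 12 other sterol synthesis enzymes had a median r of −0.07 with the 6 genes, and 5 of them were above 0.

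The rest of the pathway was read from 5 lists of 48 genes, 1 probe per gene, of which 38 were tested. Of 16 other sterol synthesis enzymes 12 were tested and 0 rose or fell by limma's adjusted p in any of the 6 comparisons, with 1 of 12 at an unadjusted p under 0.05 for aging in males and 0 of 12 in females. Their median difference with age was −0.058 in females and −0.031 in males. Mvd, which decarboxylates mevalonate diphosphate, differed by −0.28 in males (SE 0.099, unadjusted p = 0.0123, adjusted p = 0.206) and by −0.055 in females. Nsdhl, a sterol dehydrogenase, differed by −0.21 in females (SE 0.12, adjusted p = 0.799) and −0.003 in males by its brightest probe. Its probes 2 and 3 differed by −0.28 and −0.23 in females and by 0.26 each in males, and probe 4 by −0.051 and −0.053. For probe 2 the difference in aging between the sexes was −0.54 (SE 0.17, adjusted p = 0.499, limma). Acat2, an acetoacetyl-CoA thiolase, differed by −0.18 in males (SE 0.097, adjusted p = 0.402). Ebp, a sterol isomerase, differed by −0.12 in males (SE 0.069, adjusted p = 0.447).

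All 6 genes of the SREBP machinery were tested, and 0 changed with age by their brightest probe. Srebf2, which encodes SREBP-2, the main activator of the sterol genes, read 7.27, 7.11, 7.34 and 7.17 in aged females and 6.76, 6.95, 6.95 and 6.67 in aged males. Aged females lay wholly above aged males, as 3.91% of all probes did, and the difference was 0.39 (SE 0.087, 1.31-fold, adjusted p = 0.0492, limma). The adjusted p missed the threshold in 5 of 11 alternative settings and 13 of 16 fits without 1 array, reaching 0.17 without aged female 1. Within slides it was 0.43 on slide 1 and 0.50 on slide 4. In males Srebf2 differed with age by −0.30 (SE 0.087, adjusted p = 0.115), and the difference in aging between the sexes was 0.28 (SE 0.12, adjusted p = 0.516). Mbtps1, the site-1 protease, was not called by its brightest probe (mean of both sexes −0.12, SE 0.064, adjusted p = 0.559) or by probe 2 (−0.16, SE 0.066, adjusted p = 0.326). The dimmest of its 3 probes, probe 3, fell by 0.25 in the mean of both sexes (SE 0.055, adjusted p = 0.0226). That call was lost with slide as a fixed block (adjusted p = 0.106), with a block for the replicate number (0.0602) and without young male 3 (0.0506). In males alone probe 3 differed by −0.33 (SE 0.078, adjusted p = 0.0534) and was not called. Srebf1, the gene of SREBP-1, differed by 0.085 in females and 0.11 in males (SE 0.13 each).

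Of 6 uptake and transport targets of SREBP-2 3 were tested. Stard4, a cytosolic sterol carrier, fell with age. It read 7.68, 7.77, 7.82 and 7.74 in young males and 7.39, 7.42, 7.32 and 7.42 in aged males. The aged males lay wholly below the young ones, as for 5.21% of all probes, and the difference was −0.37 (SE 0.075, 1.29-fold lower, adjusted p = 0.0229, limma). In females it read 7.73, 7.51, 7.69 and 7.75 when young and 7.47, 7.34, 7.61 and 7.48 when aged, which overlapped, with a difference of −0.20 (SE 0.075, adjusted p = 0.492). The mean of both sexes was −0.28 (adjusted p = 0.00646), a call lost with median scaling (−0.27, adjusted p = 0.103), and the difference in aging between the sexes did not pass (0.17, SE 0.11, adjusted p = 0.6). The male call was lost with median scaling (−0.34, adjusted p = 0.218), with a block for the replicate number (0.0535) and without any 1 of young males 2, 3 and 4 or aged males 2 and 3 (0.0536 to 0.0967).

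Of 11 fatty acid targets of SREBP-1 10 were tested and 0 rose or fell in any comparison. Scd1, a stearoyl-CoA desaturase, differed by 0.57 in males (SE 0.17, adjusted p = 0.128, limma) and 0.20 in females (SE 0.17, adjusted p = 0.9). In males it read 7.31, 7.13, 7.04 and 7.19 when young and 7.22, 7.92, 7.79 and 8.01 when aged. The 7.22 is aged male 1, whose age field reads 12 months. Within slides the male difference was −0.09 on slide 1, which held that array, and 0.74 on slide 3. Fasn, fatty acid synthase, differed by −0.37 in females (SE 0.14, adjusted p = 0.48) and −0.093 in males. The Fasn probe was dim, with group means of 4.50 to 4.87. It was detected on 4 of 4 young females, 3 of 4 young males and 1 of 4 aged arrays in each sex. Acly, which makes cytosolic acetyl-CoA, differed by 0.14 in males (SE 0.066, adjusted p = 0.355), and the elongase Elovl6 by −0.10 (SE 0.093, adjusted p = 0.646).

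Of 9 genes of sterol oxidation and the liver X receptors 7 were tested, and 1 rose with age in both sexes. Cyp27a1, a mitochondrial hydroxylase that oxidises cholesterol's side chain, read 6.77, 6.90, 6.81 and 6.79 in young females and 7.55, 7.57, 7.74 and 7.47 in aged females by its brightest probe. In males it read 6.97, 6.88, 7.13 and 7.18 when young and 7.65, 7.61, 7.72 and 7.30 when aged. Every aged array lay above every young array of its sex, as for 2.36% of all probes in females and 3.88% in males. The rise was 0.77 in females (SE 0.096, 1.70-fold, adjusted p = 0.000415, limma) and 0.53 in males (SE 0.096, 1.44-fold, adjusted p = 0.0115), and the difference between these was 0.24 (SE 0.14, adjusted p = 0.578). Without aged male 3 the male rise was 0.48 with an adjusted p of 0.0555. All 3 Cyp27a1 probes were called for the mean of both sexes, at 0.65, 0.47 and 0.51 (adjusted p = 2.66e-05, 0.00455 and 0.00139). By probe 2 neither sex alone was called (females 0.49, adjusted p = 0.09, and males 0.45, adjusted p = 0.0917, limma). Probe 3 was called in females (0.57, adjusted p = 0.0229) and not in males (0.44, adjusted p = 0.0738). The female call of probe 3 was kept in 8 of 11 alternative settings and 10 of 16 fits without 1 array. Within slides the female rise was 0.98 and 0.65, and the male rise 0.68 and 0.51. Cyp46a1, a neuronal cholesterol hydroxylase, differed by −0.39 in females (SE 0.17, adjusted p = 0.623), and Nr1h3, a liver X receptor, by 0.33 (SE 0.16, adjusted p = 0.723), both not called. The Cyp46a1 probe was dim, with group means of 4.77 to 5.16, and was not detected on every array. Nr1h2, the other liver X receptor, differed by −0.054 in females and −0.11 in males by its brighter probe (SE 0.08 each).

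Some markers of 2 other cell types rose with age by limma's adjusted p, microglia markers in both sexes and pigment epithelium markers in males only. Over all probes 0.633% were called for aging in females and 0.992% in males, in either direction. Of 12 pigment epithelium markers 9 were tested, of which 0 rose in females and 5 in males, and their summed normalised intensity ran from 920 to 8360 in young females, 1510 to 3560 in aged females, 1890 to 4230 in young males and 6890 to 11000 in aged males. Of 10 microglia markers, all tested, 2 rose in females and 6 in males, with sums of 608 to 730, 772 to 1010, 625 to 664 and 879 to 1080 in the same order. In both lists no marker with a probe was below detection on all arrays. The part of these cell types in the Cyp27a1, Stard4, Srebf2 and Mbtps1 results was not tested.

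**Figure D4:**
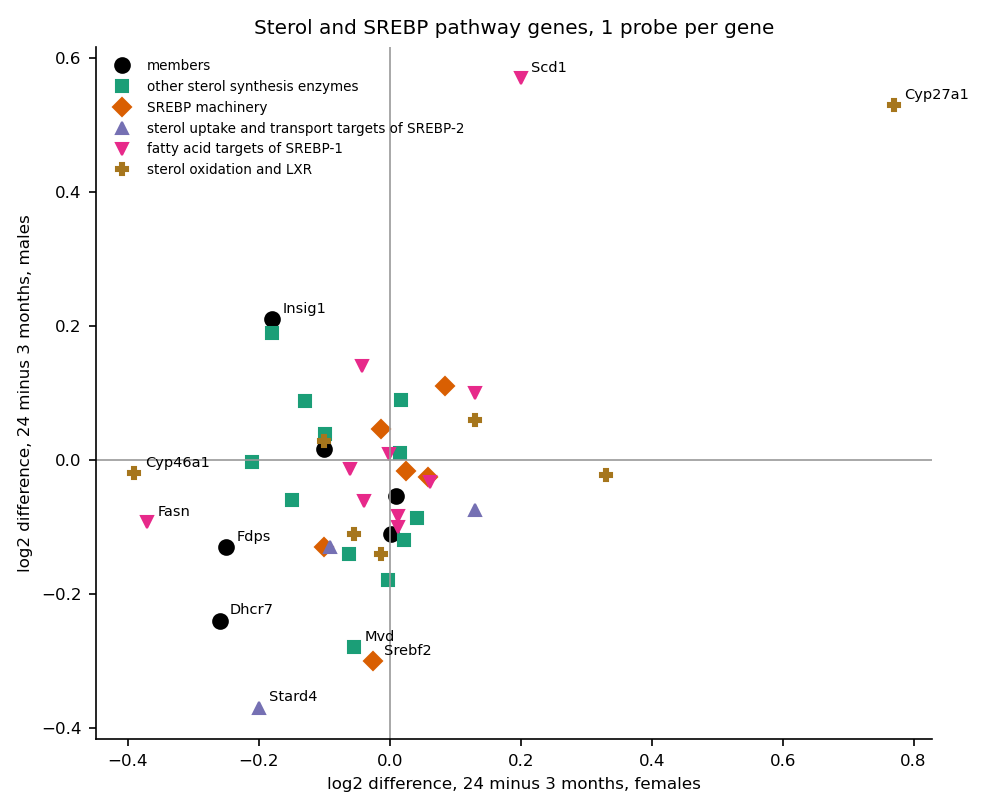
Log2 difference with age in females (horizontal axis) against males (vertical axis) for the 6 genes (members, black circles) and 38 tested genes of the 5 lists, each by its brightest tested probe. The 6 genes lie within 0.26 of 0 on both axes, while Cyp27a1 stands at 0.77 and 0.53 and Stard4 at −0.20 and −0.37.

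**Figure D5:**
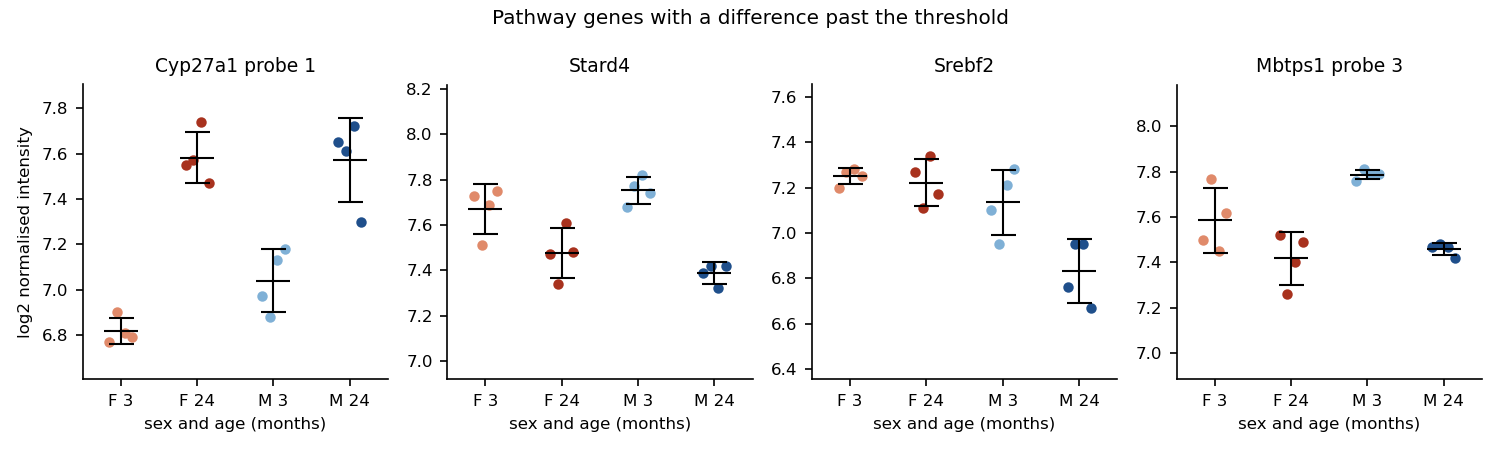
Log2 normalised intensity (vertical axis) by sex and age for the 4 probes of the pathway lists with a call that the text describes in full. Points are arrays, the long bar is the mean of 4 arrays and whiskers are ±1 SD. Cyp27a1 is higher in aged arrays of both sexes. Stard4 and Mbtps1 probe 3 are lower in aged males with no overlap, as 5.21% of all probes are. Mbtps1 probe 3 passed for the mean of both sexes and not in males alone (adjusted p = 0.0534, limma). Srebf2 in aged males lies below aged females.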

How the data were processed

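Whole retina RNA was extracted with Trizol, cleaned with DNase I treatment and made into biotinylated cRNA, per the labels' protocols. The deposited table holds 1 average intensity and 1 detection p-value per probe and array, per the file headers; values below 0 (20.7% to 24.2% per array) show background subtraction, and array means differ. A second deposited table holds the same intensity values times 1 factor per array (0.821 to 1.25), linear and not centred. For the array software and the annotation build, the version is not given in the sources used here. Probe symbols were updated through RefSeq names, which matched 24682 of 25697.

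Background correction and normalisation used limma 3.58.1 under R 4.3.3 (neqc: normexp, 798 inferred negative controls, offset 16, quantile, log2). A single model with 4 group means and 12 residual degrees of freedom was fitted to 15016 probes, with statmod 1.5.0 for slide correlation and Benjamini-Hochberg adjustment. Correlations used 100000 permutations in Python 3.11.15 with numpy 2.4.6. Scripts were tested on simulated data. Within-group arrays correlated at 0.983 to 0.995.

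Alternatives were the authors' scaled values, median scaling, no further background correction, a strict filter (detection p-value under 0.01 on all arrays) or none, the mean of a gene's probes for co-variation, trend and robust variances, array weights, slide as a fixed or random block, within-slide values, a replicate block, only the groups compared and each array left out. All members are described. Of the lists, called genes and up to 4 per list with the smallest p for aging are named, and the 10 genes most like the members. Some genes that this rule takes are not reported here. The members and lists were chosen with earlier results of these data known.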

Additional observations from a re-analysis of the deposited data

Results flagged for a closer look

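In 112 groups of 4 arrays an array was singled out where its gap to the nearest other array exceeded the critical share of the group's range in Dixon's test at 95%, which chance does in about 1 in 20 groups. This held in 8 groups. Of the 6 genes it held for Hmgcs1, where young female 1 read 11.41 and the other young females 11.63 to 11.67. Without that array the female difference with age was −0.058.

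In the pathway lists young female 1 was the highest for Acly at 11.42 (others 11.34 to 11.35), and aged female 1 the highest for Ebp at 8.18 (others 8.05 to 8.06). Aged male 4 was the highest for Fasn at 5.03 (others 4.52 to 4.59) and the lowest for the brighter Nr1h2 probe at 8.75 (others 8.90 to 8.92). Aged male 3 was the lowest for Acat2 at 7.16 (others 7.24). Young male 1 was the highest for Srebf1 at 7.25 (others 6.89 to 6.92), and young male 4 the highest for Elovl6 at 9.04 (others 8.82 to 8.86).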

How the results depend on the processing

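The count of the 9 member probes called stayed at 0 under every alternative run for aging in each sex, for sex at each age and for the difference in aging, and for the mean of both sexes it was 1 (Fdps) with the authors' scaled values and with trend and robust variances. Differences near 0 changed sign. Hmgcs1 in females was −0.0026 with the authors' values and −0.013 with array weights, and −0.058 to 0.028 with 1 array left out (−0.0036 without aged female 1). Sqle in males was −0.012 and Cyp51 in females −0.014 with the authors' values, and Insig1 for sex at 24 months −0.0033 with slide as a fixed block. Leaving out 1 array in turn gave −0.035 to 0.059 for Sqle in males, with −0.0009 and −0.0028 among the values below 0, −0.049 to 0.07 for Cyp51 in females, with −0.0045 and −0.012, and −0.09 to 0.16 for Insig1 at 24 months, with −0.011, −0.067 and −0.04. It also gave −0.048 to 0.012 for Sqle at 3 months, with 0.0075 and 0.0038, −0.064 to 0.01 for Fdps and −0.011 to 0.071 for Hmgcs1 at 24 months. The cause was not tested. Co-variation passed for 5 pairs with median scaling and for 0 to 1 with an array left out.

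Counts over all probes moved more. Aging in females called 95, but 51 with the authors' values, 62 without a filter, 36 with only the groups compared and 59 to 99 with an array left out. Aging in males called 149 (115 higher, 34 lower), but 89 with median scaling (85 higher, 4 lower) and 97 with the strict filter. It called 412 with array weights and 55 to 230 with an array left out. The 230 was without aged male 1, whose age field reads 12 months. The authors' values gave 69 higher and 51 lower. The mean of both called 282 (210 higher, 72 lower), 186 with the strict filter, 212 to 315 with an array left out, and 121 higher and 68 lower with the authors' values. Sex at 3 months called 59 (47 higher in females, 12 lower), 29 and 14 with the authors' values, and 34 without a filter, 187 with array weights, 26 with slide as a fixed block and 24 to 236 with an array left out. Sex at 24 months called 103, but 27 with the authors' values, 45 without a filter, 233 with array weights, 33 with slide as a fixed block, 28 with only the groups compared and 26 to 281 with an array left out. Without aged male 1 the count for sex at 24 months was 208. Arrays of the same replicate number did not pair (r of their deviations −0.341 to 0.381); a replicate block gave 79 calls for aging in males, 36 for sex at 3 months and 55 at 24 months. Signal near background limits Insig1 probes 2 to 4 and the probes of Fasn and Cyp46a1.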

Other observations

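Over the 16 arrays Sqle probe 2 had an r of 0.65 and 0.67 with Insig1 probes 2 and 3, as deviations from group means, while it had −0.10 with Sqle probe 1 and −0.41 with Insig1 probe 1. These pairs were singled out after their values were seen and were not tested. The mean levels of Sqle probe 2, Insig1 probe 2 and Insig1 probe 3 were 6.12, 5.21 and 4.76. Against the mean deviation of the other probes in its own band of brightness (10 equal bands of the tested probes, with 1500 to 1501 others each), Sqle probe 2 had an r of −0.2, Insig1 probe 2 had 0.02 and Insig1 probe 3 had 0.0.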
